A study of Mus musculus with 24 samples.

Results

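Integrins and laminins are the receptor and ligand families through which lung cells hold on to their basement membrane. The set described here comprised every measured gene whose symbol is that of an integrin chain (Itga or Itgb with a number or letter, 1 chain gene left out) or a laminin chain (Lama, Lamb or Lamc with a number). It held 34 genes of 18193 tested, 24 integrin and 10 laminin chains. Itga2b and Itgb2l, which carry a number and a letter, were counted as members. Itga11 and Itgad, which belong to the same families, were not analysed here. Each gene was represented by its brightest probe set.

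The arrays came from mouse lung and fell into 5 groups. The tumours were nodules dissected by eye from bitransgenic mice kept on doxycycline food for 3 to 6 months: 4 expressed an L858R mutant of the epidermal growth factor receptor (EGFR) and carried the strain label FVB mixed, 5 expressed L858R+T790M and 5 T790M, both labelled FVB. L858R activates the EGFR kinase, and T790M is known from tumours resistant to EGFR inhibitors. Normal lung came from littermates with 1 transgene or none, also on doxycycline, with 5 labelled FVB mixed (mixed-strain normals) and 5 labelled FVB (FVB normals). The labels shorten the other transgene to C and name no promoter, and they do not say whether each array is a separate mouse, so p-values reflect only how far these samples spread, which may be technical. Values are log2 expression, differences are log2 tumour minus normal ± SE from limma, and a gene was called at a Benjamini-Hochberg adjusted p under 0.05 over all genes.

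Whole tissue was measured. Endothelial markers had 6 of 6 genes lower in L858R and L858R+T790M tumours and 5 of 6 in T790M tumours, and smooth muscle and pericyte markers 7, 6 and 5 of 7. Fibroblast markers had 5, 4 and 4 of 6 lower in the same order, T and NK cell markers 6 of 7 in each, and B cell markers 2 of 3 in each. Among alveolar type 1 markers 5, 3 and 5 of 6 were lower and 1, 1 and 0 higher. Of 4 alveolar type 2 markers 3, 3 and 2 were higher. Ciliated (4, 4 and 4 of 4), club (3, 3 and 2 of 3), mesothelial (4, 2 and 4 of 4), cardiac muscle (3, 4 and 3 of 4) and adipocyte markers (2 of 2 in each) were lower as well. Basal epithelial markers had 0 of 3 called in each, as had the 1 measured Schwann cell marker. In such samples fewer cells of a type and less RNA per cell cannot be told apart. T790M replicate 1 was the tumour of its group nearest to the normals in Itga7 and Itga1, among others.

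Integrins are heterodimers of 1 alpha and 1 beta chain that bind matrix proteins or other cells and signal through kinases such as FAK and Src. Laminins are trimers of an alpha, a beta and a gamma chain, and form the sheet on which epithelium, endothelium and muscle rest. In lung, laminins with the alpha 5 chain underlie the alveolar epithelium, and laminin-332, which holds the alpha 3 and beta 3 chains, anchors epithelial cells through the alpha 6 beta 4 integrin in hemidesmosomes. Laminins with alpha 2 or alpha 4 belong to muscle, mesenchymal and vascular basement membranes. The integrin alpha 8 chain is a marker of lung interstitial fibroblasts and smooth muscle.

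Promoter sequences are shown for the chain with the largest rise, Lamb3, and the one with the largest fall, Itga8. They are the 250 bases before each annotated start for which a window was found. They read 5′ to 3′ on the gene's strand, from RefSeq on build GRCm38.p6. Lamb3 has windows for a pair of starts, at chr1:193301744-193301993 and chr1:193301993-193302242 on the plus strand. Both lie inside the annotated gene, which begins at 193294353, and no window before that first base was found. The Itga8 window is chr2:12301945-12302194 on the minus strand. Capitals mark a match to 1 of 3 motifs searched on both strands, TGANTCA of AP-1, GGAATG of TEAD and GGGCGG of SP and KLF factors.
Lamb3, first window: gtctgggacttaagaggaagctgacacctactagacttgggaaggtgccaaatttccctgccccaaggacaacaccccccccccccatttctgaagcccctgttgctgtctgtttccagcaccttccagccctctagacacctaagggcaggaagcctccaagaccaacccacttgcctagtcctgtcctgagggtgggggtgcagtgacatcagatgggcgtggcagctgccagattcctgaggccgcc
Lamb3, second window: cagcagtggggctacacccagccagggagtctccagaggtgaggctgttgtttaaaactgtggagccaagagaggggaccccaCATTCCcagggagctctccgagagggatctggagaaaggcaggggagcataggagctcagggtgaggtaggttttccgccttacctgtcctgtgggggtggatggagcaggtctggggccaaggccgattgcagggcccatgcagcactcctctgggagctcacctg
Itga8: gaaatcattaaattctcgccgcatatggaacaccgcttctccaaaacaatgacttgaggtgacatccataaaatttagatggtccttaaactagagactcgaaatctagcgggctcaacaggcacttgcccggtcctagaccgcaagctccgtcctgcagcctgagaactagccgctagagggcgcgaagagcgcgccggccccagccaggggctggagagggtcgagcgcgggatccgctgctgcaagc
The 1 match, CATTCC, is the TEAD letters on the opposite strand and begins 167 bases before the second of these Lamb3 starts. Over the 25 windows found for 22 members, TEAD letters were in 3 windows, SP and KLF letters in 9 and AP-1 letters in 0. Of all 32851 windows of this length, 12.6% held the TEAD letters, 32.7% those of SP and KLF factors and 6.75% those of AP-1. The matches describe letters in these windows, and no match in a window says nothing on the factor.

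The first question was how many of these chains differed between tumour and normal lung. In L858R tumours 8 of 34 members were higher (23.5%, against 23.3% of all genes tested) and 15 lower (44.1%, against 18.1%), so that 23 were called (67.6%, against 41.4%). Among L858R+T790M tumours 8 were higher (23.5%, against 20.2%) and 12 lower (35.3%, against 16.1%), together 58.8% against 36.2%. In T790M tumours 6 were higher (17.6%, against 21.9%) and 11 lower (32.4%, against 17.9%), together 50% against 39.8%. The share that rose thus lay near that of all genes, and the share that fell was higher than that of all genes in each comparison. The median difference over the members was -0.40, -0.22 and -0.30 in the same order, beside 0.05, 0.03 and 0.0 over all genes. Without T790M replicate 1 the T790M counts were 6 higher and 12 lower. L858R+T790M and T790M tumours share the FVB normals, so their results are not independent.

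Called in the same direction in all 3 tumour groups were 14 members, 6 higher (Lamb3, Lama5, Lama1, Itga7, Itga9 and Itgav) and 8 lower (Itga8, Itga1, Itga4, Itga3, Itgb7, Lama2, Lama4 and Lamc3). Another 14 were called in 1 or 2 of the comparisons, and 6 in none (Itga2, Itga5, Itga6, Itgam, Itgb3 and Lamb2). The share of all genes with each of these patterns was not counted, so the counts do not set these chains apart from other genes. Of these 6, all but Itga6 were called lower in at least 1 comparison when 1 array was left out, as given below. None of the 34 was called higher in one tumour group and lower in another. The arrays of tumours and normals did not overlap for 22 members in L858R (64.7%, against 35.8% of all genes), 16 in L858R+T790M (47.1%, against 29.8%) and 14 in T790M tumours (41.2%, against 29.8%).

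Laminins are taken first, as the ligands. Lamb3, the beta chain of laminin-332, read 10.85, 12.08, 12.59 and 12.83 in L858R tumours, against 9.86, 9.91, 9.76, 10.06 and 10.15 in mixed-strain normals. In L858R+T790M tumours it read 12.30, 12.62, 12.01, 12.26 and 11.72 and in T790M tumours 11.81, 12.39, 12.32, 12.38 and 12.18, against 9.36, 9.18, 9.55, 8.84 and 8.98 in FVB normals. Every tumour array lay above every normal array of its strain label, with L858R replicate 1 the lowest tumour. The differences were 2.14 ± 0.27 (4.41-fold, adjusted p = 2.13e-06), 3.0 ± 0.25 (8.0-fold, adjusted p = 2.25e-08) and 3.03 ± 0.25 (8.19-fold, adjusted p = 2.6e-08), the highest of any member in each comparison.

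The alpha chain of the same trimer did not go with it. Lama3 read 10.04, 9.47, 9.86 and 9.53 in L858R tumours, against 10.70, 10.33, 10.18, 10.63 and 10.37 in mixed-strain normals. It read 8.68, 8.29, 9.83, 9.61 and 9.06 in L858R+T790M tumours and 8.95, 9.76, 8.99, 9.38 and 9.13 in T790M tumours, against 9.87, 9.79, 10.05, 9.01 and 9.20 in FVB normals. L858R tumours lay below their normals, while the other groups overlapped with theirs. Lama3 was lower in L858R tumours (-0.72 ± 0.26, adjusted p = 0.034), and the differences were -0.49 ± 0.25 (adjusted p = 0.136) and -0.34 ± 0.25 (adjusted p = 0.297) in the others. Leaving out L858R replicate 2, L858R replicate 4 or either of mixed-strain normals 1 and 4 ended the L858R call (-0.67 to -0.63, adjusted p from 0.0682 to 0.0954), as it did with all 10 normal lungs as 1 group (-0.29, adjusted p = 0.43). Against all 10 normal lungs Lama3 was instead called lower in L858R+T790M (-0.92, adjusted p = 0.00664) and T790M tumours (-0.77, adjusted p = 0.0197). Its mean was 10.44 in mixed-strain and 9.58 in FVB normals. Without L858R+T790M replicate 3, Lama3 was called lower in L858R+T790M tumours (-0.67, adjusted p = 0.0347).

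Lama5, the alpha chain of the alveolar laminins, rose in all tumour groups. It read 10.39, 10.16, 10.58 and 11.14 in L858R tumours, against 9.76, 9.78, 9.83, 9.81 and 9.79 in mixed-strain normals. Its values were 10.85, 11, 10.53, 10.42 and 10.75 in L858R+T790M tumours and 10.16, 10.97, 10.26, 10.46 and 10.34 in T790M tumours, against 9.55, 9.69, 9.86, 9.67 and 9.69 in FVB normals. No tumour array overlapped with its normals. The differences were 0.77 ± 0.16 (adjusted p = 0.000593), 1.02 ± 0.15 (adjusted p = 2.29e-05) and 0.75 ± 0.15 (adjusted p = 0.000528). Lama1, an alpha chain best known from embryonic basement membranes, rose too, by 0.77 ± 0.15, 0.79 ± 0.14 and 0.62 ± 0.14 (adjusted p from 0.000187 to 0.00163). Its probe set was among the dimmer ones, with 21.8% of genes below its mean over all arrays.

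The alpha chains of mesenchymal and vascular laminins fell. Lama2, the chain of muscle laminin, read 7.93, 7.37, 7.33 and 7.16 in L858R tumours, against 9.34, 9.13, 9.05, 9.22 and 9.33 in mixed-strain normals. It read 7.22, 7.46, 7.98, 7.24 and 8.16 in L858R+T790M tumours and 8.16, 7.40, 7.95, 7.09 and 7.74 in T790M tumours, against 8.63, 8.70, 8.68, 8.78 and 8.47 in FVB normals. All tumours lay below their normals, by -1.77 ± 0.20 (adjusted p = 7.58e-07), -1.04 ± 0.19 (adjusted p = 0.000204) and -0.98 ± 0.19 (adjusted p = 0.00033). Lama4, the chain of vessel laminin, read 8.77, 7.95, 8.71 and 8.32 in L858R tumours, against 10.19, 10.06, 9.84, 10.26 and 10.07 in mixed-strain normals. Its values were 8.54, 8.18, 9.19, 8.69 and 9.22 in L858R+T790M tumours and 9.11, 8.57, 9.18, 9.12 and 9.06 in T790M tumours, against 9.52, 9.76, 9.60, 9.84 and 9.43 in FVB normals. Again no groups overlapped, and the differences were -1.65 ± 0.19 (adjusted p = 8.03e-07), -0.87 ± 0.18 (adjusted p = 0.00064) and -0.62 ± 0.18 (adjusted p = 0.00855).

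Endothelial and fibroblast markers were lower in the same tumours. The mean over 6 endothelial markers was 8.98 to 10.26 in L858R, 8.38 to 10.59 in L858R+T790M and 8.33 to 10.97 in T790M tumours, against 11.88 to 12.07 in mixed-strain and 11.56 to 12.23 in FVB normals. The mean over 6 fibroblast markers was 8.86 to 10.21, 8.75 to 10.37 and 8.50 to 10.25 in the tumours in the same order, against 11.44 to 11.60 and 10.60 to 11.28 in the normals. The part of these cells in the fall of Lama2 and Lama4 was not tested.

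Among the other beta and gamma chains, Lamb1 is the widely made beta chain and Lamc1 the gamma chain of most laminins. Lamb1 read 9.05, 8.46, 9.09 and 9.26 in L858R tumours, against 10.23, 10.02, 9.80, 9.95 and 10.14 in mixed-strain normals. In L858R+T790M tumours it read 9.21, 9.10, 9.59, 9.13 and 9.70 and in T790M tumours 9.17, 9.81, 9.38, 9.64 and 9.49, against 9.73, 9.95, 9.74, 9.85 and 9.31 in FVB normals. Only the L858R tumours lay apart from their normals (-1.06 ± 0.17, adjusted p = 2.77e-05). The differences of -0.37 ± 0.16 and -0.22 ± 0.16 in the others were not called (adjusted p = 0.0719 and 0.292). Lamb1 was called lower in L858R+T790M tumours without FVB normal replicate 5 (-0.47, adjusted p = 0.0253), L858R replicate 2 (-0.37, adjusted p = 0.0423), or L858R+T790M replicate 3 (-0.43, adjusted p = 0.0486) or 5 (-0.46, adjusted p = 0.0293). Lamc3 was lower in each group by -0.64 ± 0.09, -0.43 ± 0.08 and -0.59 ± 0.08 (adjusted p from 6.54e-06 to 0.000316). Lamc1 was higher in L858R+T790M tumours by 0.33 ± 0.12 (adjusted p = 0.0456), a call that was lost without any 1 of 14 arrays, and Lamb2, the beta chain of muscle and vessel laminins, was not called in any tumour group (-0.27 to -0.12). The Lamc1 value was 0.21 without FVB normal replicate 5. Without L858R replicate 1, Lamb2 (-0.44, adjusted p = 0.0359) and Lamc1 (-0.35, adjusted p = 0.0463) were lower in L858R tumours.

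**Figure D1:**
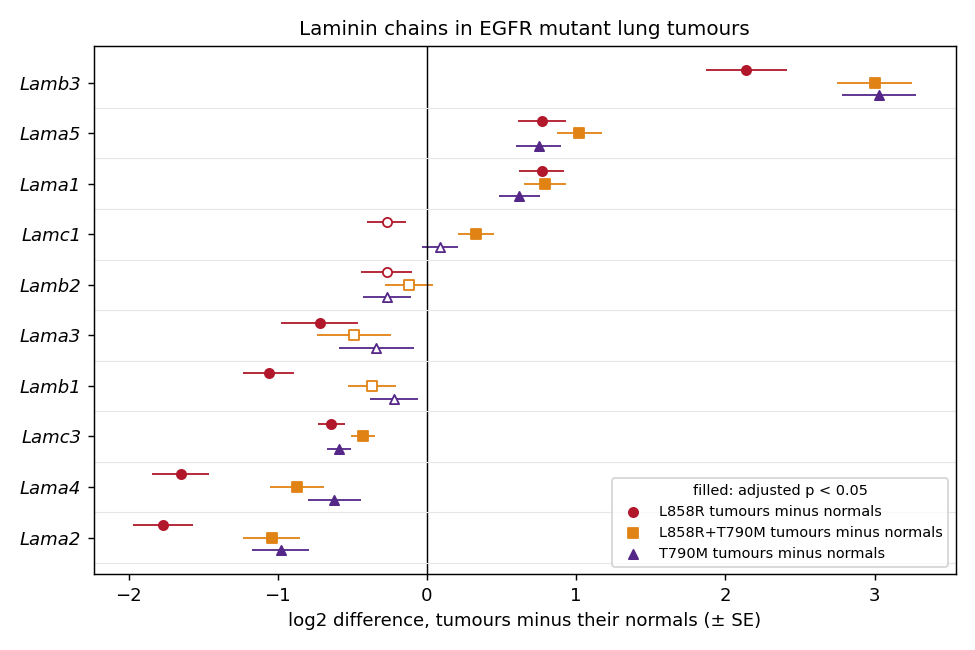
Log2 difference between tumours and the normal lungs of their strain label (horizontal axis, ± SE) for the 10 laminin chains, for L858R (n = 4 against 5), L858R+T790M and T790M tumours (n = 5 against 5 each); filled symbols passed an adjusted p of 0.05. Lamb3 lies far to the right at 2.14 to 3.03, Lama5 and Lama1 between 0.62 and 1.02, and Lama2 and Lama4 at the left end.

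**Figure D2:**
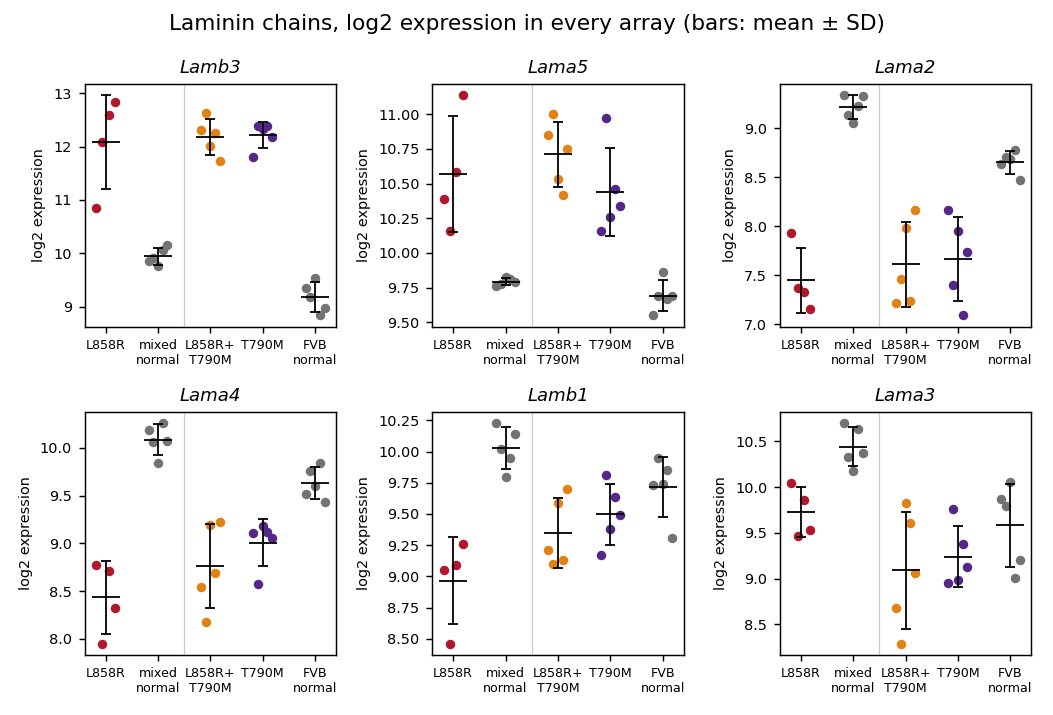
Log2 expression of 6 laminin chains in each of the 24 arrays, with the tumours of each strain label left of their normals and bars for the mean ± SD. Lamb3 and Lama5 tumours lie above all normals and Lama2 and Lama4 tumours below, while Lamb1 and Lama3 separate only in L858R tumours.

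The integrins that bind laminin moved in different directions. Itga6, which forms the laminin receptors alpha 6 beta 1 and alpha 6 beta 4, read 10.13, 10.54, 9.69 and 9.87 in L858R tumours, against 10.43, 10.76, 10.13, 10.62 and 9.98 in mixed-strain normals. It read 9.99, 10.49, 10.14, 10.04 and 10.35 in L858R+T790M tumours and 9.75, 10.60, 9.71, 11.16 and 9.58 in T790M tumours, against 10.22, 10.39, 10.58, 10.50 and 9.94 in FVB normals. The groups overlapped and the differences of -0.33 ± 0.26, -0.12 ± 0.24 and -0.17 ± 0.24 were not called (adjusted p from 0.334 to 0.743). T790M replicate 4 had the highest value of all arrays.

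Itgb4, the beta chain of the hemidesmosome, read 7.10, 7.47, 7.55 and 7.71 in L858R tumours, against 8.03, 8.24, 8.17, 8.17 and 8.0 in mixed-strain normals. In L858R+T790M tumours it read 7.91, 7.86, 7.94, 7.58 and 7.99 and in T790M tumours 7.87, 8.95, 7.52, 8.18 and 7.83, against 8.28, 8.09, 7.91, 8.02 and 8.16 in FVB normals. L858R tumours lay below their normals (-0.66 ± 0.19, adjusted p = 0.00661), and the other groups overlapped (-0.24 ± 0.18 and -0.02 ± 0.18, adjusted p = 0.325 and 0.935). Lamb3 was thus higher in arrays where Itga6 was not called and Itgb4 was lower or not called. Itga3, whose dimer with beta 1 binds laminin-332 and laminins with alpha 5, was lower by -0.85 ± 0.12, -0.30 ± 0.12 and -0.70 ± 0.12 (adjusted p = 1.24e-05, 0.0467 and 6.99e-05). The call in L858R+T790M tumours was lost without any 1 of 14 arrays (-0.33 to -0.23).

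Itga7, known as the laminin receptor of muscle, went up. It read 8.38, 9.52, 8.73 and 9.61 in L858R tumours, against 7.86, 7.57, 7.58, 8.06 and 7.59 in mixed-strain normals. It read 9.36, 10.24, 8.69, 9.17 and 9.39 in L858R+T790M tumours and 7.78, 9.24, 8.24, 9.03 and 8.88 in T790M tumours, against 7.76, 7.56, 7.56, 7.58 and 7.62 in FVB normals. No groups overlapped, though T790M replicate 1 lay just above the highest FVB normal. The differences were 1.33 ± 0.29 (2.51-fold, adjusted p = 0.00089), 1.75 ± 0.28 (3.37-fold, adjusted p = 3.54e-05) and 1.02 ± 0.28 (2.03-fold, adjusted p = 0.00519). Smooth muscle and pericyte markers were lower in the same tumours, and the part of these cells in the values of Itga7 was not tested. The mean over 7 smooth muscle and pericyte markers was 8.38 to 8.66 in L858R, 8.15 to 9.21 in L858R+T790M and 8.44 to 9.62 in T790M tumours, against 10.12 to 10.58 in mixed-strain and 10.04 to 10.37 in FVB normals.

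Collagen receptors fell where they were called. Itga1, the alpha chain of a receptor for basement membrane collagen, read 8.94, 8.36, 8.04 and 8.26 in L858R tumours, against 9.88, 10.30, 9.96, 10.54 and 10.11 in mixed-strain normals. Its values were 8.32, 7.90, 8.80, 7.87 and 9.0 in L858R+T790M tumours and 9.50, 7.65, 8.60, 8.89 and 8.67 in T790M tumours, against 9.73, 10.01, 10.19, 10.49 and 9.99 in FVB normals. Every tumour lay below its normals, with T790M replicate 1 the nearest. The differences were -1.76 ± 0.29 (adjusted p = 4.17e-05), -1.70 ± 0.27 (adjusted p = 3.95e-05) and -1.42 ± 0.27 (adjusted p = 0.000252). Itga10, a collagen receptor of cartilage, was lower by -0.21 ± 0.08 in L858R+T790M tumours (adjusted p = 0.0372), which was lost without any 1 of 5 arrays, and Itga2 was not called (-0.49 to -0.26). That rested on T790M replicate 2, the array high in Itga2 (8.44, others 6.88 to 7.24). Without it Itga2 was lower in L858R (-0.49, adjusted p = 0.00113), L858R+T790M (-0.30, adjusted p = 0.0298) and T790M tumours (-0.52, adjusted p = 0.000858). Without T790M replicate 5 it was called in L858R tumours alone (adjusted p = 0.0452).

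The receptors of the RGD motif, which fibronectin, vitronectin and nephronectin carry, held the deepest fall. Itga8, whose dimer with beta 1 binds nephronectin, read 9.30, 9.25, 8.80 and 8.35 in L858R tumours, against 12.79, 12.64, 12.35, 12.41 and 12.43 in mixed-strain normals. It read 9.16, 9.24, 11.09, 8.34 and 11.20 in L858R+T790M tumours and 10.65, 9.11, 10.28, 8.02 and 8.90 in T790M tumours, against 12.09, 12.38, 12.47, 12.16 and 11.73 in FVB normals. The highest tumour of each group was below the lowest normal, and the L858R+T790M tumours included replicates 3 and 5 at 11.09 and 11.20, with the others at 8.34 to 9.24. The differences were -3.60 ± 0.50 (12.1-fold lower, adjusted p = 7.03e-06), -2.36 ± 0.47 (5.13-fold lower, adjusted p = 0.00045) and -2.77 ± 0.47 (6.84-fold lower, adjusted p = 8.56e-05). Its dimmer probe set gave -4.35, -2.61 and -2.91, also called. The fibroblast and smooth muscle markers given above were lower in the same arrays, and their part in the fall of Itga8 was not tested.

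Itgav, the alpha chain shared by vitronectin receptors and activators of latent TGF-beta, rose by 0.49 ± 0.12, 0.86 ± 0.11 and 0.43 ± 0.11 (adjusted p = 0.00211, 4.26e-06 and 0.00401), with no overlap between tumours and normals. With the median over its 5 probe sets the L858R call was lost (0.18, adjusted p = 0.166). Of its partners, Itgb6, the epithelial beta chain that activates TGF-beta, was higher by 0.94 ± 0.24 in L858R+T790M tumours (adjusted p = 0.00371). It differed by 0.42 ± 0.26 and 0.13 ± 0.24 in L858R and T790M tumours (adjusted p = 0.196 and 0.71). Its mean was 8.20 in L858R, 8.11 in L858R+T790M and 7.30 in T790M tumours, against 7.77 in mixed-strain and 7.17 in FVB normals. With all 10 normal lungs as 1 group Itgb6 was called higher in L858R tumours too (0.73, adjusted p = 0.0209). Itgb5 was lower in L858R (-0.40 ± 0.09) and L858R+T790M tumours (-0.24 ± 0.09), with the call in L858R+T790M tumours lost without any 1 of 7 arrays. In T790M tumours Itgb5 differed by -0.21 ± 0.09 (adjusted p = 0.0596), and was called lower without FVB normal replicate 5, mixed-strain normal replicate 1 or T790M replicate 5 (adjusted p from 0.0352 to 0.0405).

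Itgb8, another beta chain that pairs with alpha V, had the dimmest probe set of the members, with 11.2% of genes below its mean over all arrays. Itgb8 was lower in L858R tumours (-0.92 ± 0.27, adjusted p = 0.00994). It differed by -0.64 ± 0.26 in L858R+T790M tumours, whose arrays all lay below their normals (adjusted p = 0.0586), and by -0.49 ± 0.26 in T790M tumours (adjusted p = 0.136). The call was made in L858R+T790M tumours without T790M replicate 1, 2 or 5 (adjusted p from 0.0124 to 0.0439), and with the replicate number as a block (adjusted p = 0.0477). In T790M tumours it was called without T790M replicate 1 (-0.66, adjusted p = 0.0432) or 5 (-0.67, adjusted p = 0.0397). Itgb3, the beta chain of the vitronectin and platelet receptors, was not called (-0.47 to -0.17). Without L858R+T790M replicate 5, which read 9.27, it was lower in L858R (-0.47, adjusted p = 0.0193), L858R+T790M (-0.48, adjusted p = 0.0194) and T790M tumours (-0.41, adjusted p = 0.0304). Itga5, the fibronectin receptor chain, was not called with all arrays in the main fit (-0.40 to -0.17). In T790M tumours it was called lower without L858R+T790M replicate 2 (-0.40, adjusted p = 0.046). The same held with all 10 normal lungs as 1 group (-0.49, adjusted p = 0.021). A fit to only the groups compared called Itga5 lower in L858R (-0.35, adjusted p = 0.0433) and T790M tumours (-0.40, adjusted p = 0.0149).

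Itga2b, the platelet fibrinogen receptor chain, was lower in L858R (-0.61 ± 0.17, adjusted p = 0.00672) and T790M tumours (-0.54 ± 0.16, adjusted p = 0.0115). In L858R+T790M tumours it differed by -0.41 ± 0.16 (adjusted p = 0.0513), with all arrays below their normals. Without mixed-strain normal replicate 1, which read 9.73, the L858R difference was -0.40 (adjusted p = 0.00878) and Itga2b was called in L858R+T790M tumours (-0.41, adjusted p = 0.00319). It was called there too without mixed-strain normal replicate 4, T790M replicate 1 or L858R+T790M replicate 5 (adjusted p from 0.0385 to 0.042). Of 4 other platelet markers 0 were higher and 1 lower in L858R tumours, 1 and 1 in L858R+T790M tumours, and 1 and 2 in T790M tumours. The mean over them was 7.89 to 8.56, 8.30 to 9.12 and 8.58 to 9.28 in the tumours in that order, against 8.81 to 10.18 in mixed-strain and 8.81 to 9.60 in FVB normals. Whether platelets had a part in the fall of Itga2b was not tested.

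Itga9, whose dimer with beta 1 binds tenascin C and osteopontin, was the integrin with the highest mean rise over the tumour groups. It read 10.50, 8.35, 11.46 and 11.23 in L858R tumours, against 8.97, 8.94, 9.12, 8.99 and 9.40 in mixed-strain normals. Its values were 11.26, 11.72, 11.47, 11.59 and 10.55 in L858R+T790M tumours and 11, 10.31, 11.29, 10.74 and 11 in T790M tumours, against 9.43, 9.45, 9.36, 9.09 and 9.19 in FVB normals. L858R replicate 2 lay below all normals while every other tumour lay above them. The differences were 1.30 ± 0.40 (adjusted p = 0.012), 2.01 ± 0.38 (4.04-fold, adjusted p = 0.000229) and 1.56 ± 0.38 (2.96-fold, adjusted p = 0.00215). Without L858R replicate 2 the L858R difference was 1.98 (adjusted p = 3.08e-06). The L858R call was lost without L858R replicate 3 (0.94, adjusted p = 0.0693) or 4 (1.02, adjusted p = 0.0591), and in a fit to these groups alone (adjusted p = 0.0675).

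Itga4, a chain of leukocyte receptors for VCAM1 and fibronectin, read 7.53, 7.95, 6.24 and 6.96 in L858R tumours, against 8.71, 8.77, 7.72, 9.20 and 7.77 in mixed-strain normals. It read 6.93, 6.84, 7.33, 7.01 and 6.94 in L858R+T790M tumours and 7.58, 6.47, 6.96, 7.03 and 7.27 in T790M tumours, against 7.43, 8.11, 8.35, 7.72 and 8.42 in FVB normals. L858R and T790M tumours overlapped with their normals at the edges, and L858R+T790M tumours did not. The differences were -1.26 ± 0.32 (adjusted p = 0.00305), -1.0 ± 0.30 (adjusted p = 0.0126) and -0.94 ± 0.30 (adjusted p = 0.0162), all called, the last not called without T790M replicate 2 (-0.80, adjusted p = 0.0508).

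Itgb1, the beta chain shared by most matrix receptors, was measured by 6 probe sets that disagreed. The brightest was lower in L858R (-0.39 ± 0.12, adjusted p = 0.0142) and T790M tumours (-0.42 ± 0.12, adjusted p = 0.0066) and differed by -0.14 ± 0.12 in L858R+T790M tumours (adjusted p = 0.397). Another, of intermediate brightness and with no accession in the annotation, read 8.11 to 9.14 in L858R, 8.05 to 10.60 in L858R+T790M and 7.92 to 10.90 in T790M tumours, against 10.77 to 11.62 in mixed-strain and 11.74 to 12.16 in FVB normals. It was lower by -2.64 ± 0.54, -3.23 ± 0.50 and -2.57 ± 0.50 (adjusted p = 0.000427, 3.66e-05 and 0.00036 over all probe sets). The next brightest probe set after the first gave -0.21, 0.03 and -0.17, so the size of the difference depended on the probe set. The 4 brighter probe sets were all lower in L858R and T790M tumours, though not all were called. With the median over its probe sets Itgb1 was lower in L858R+T790M tumours as well (-1.60, adjusted p = 4.71e-05). The dimmest probe sets read only 3.64 to 4.40. In tumours the median therefore lay between the probe set with the large fall and one that read 8.92 to 9.49 there. It thus takes in part of that fall and is no agreement among the probe sets.

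**Figure D3:**
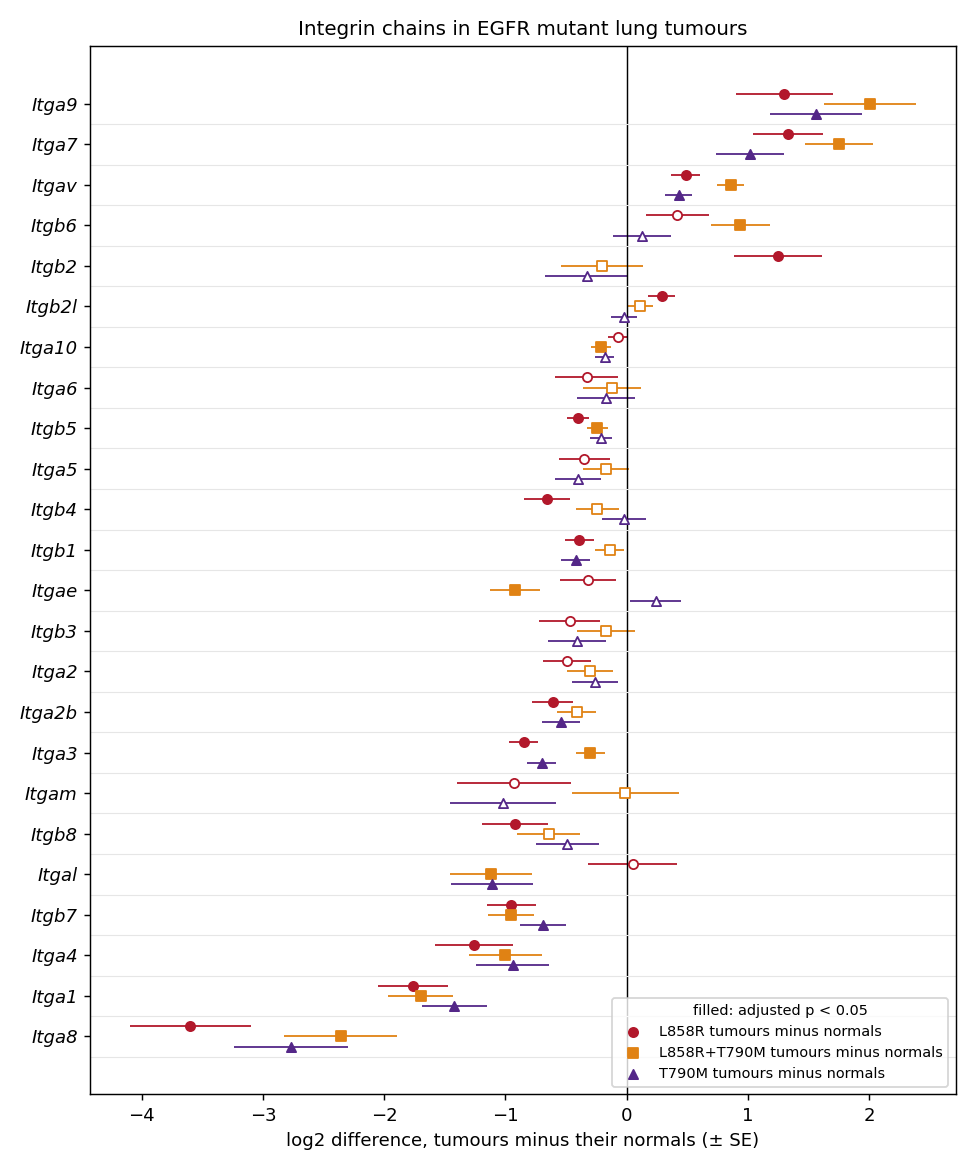
Log2 difference between tumours and the normal lungs of their strain label (horizontal axis, ± SE) for the 24 integrin chains, for L858R (n = 4 against 5), L858R+T790M and T790M tumours (n = 5 against 5 each); filled symbols passed an adjusted p of 0.05. Itga9, Itga7 and Itgav lie to the right of 0 in each group, Itga8 and Itga1 farthest to the left, and Itgb2 is filled only in L858R tumours.

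**Figure D4:**
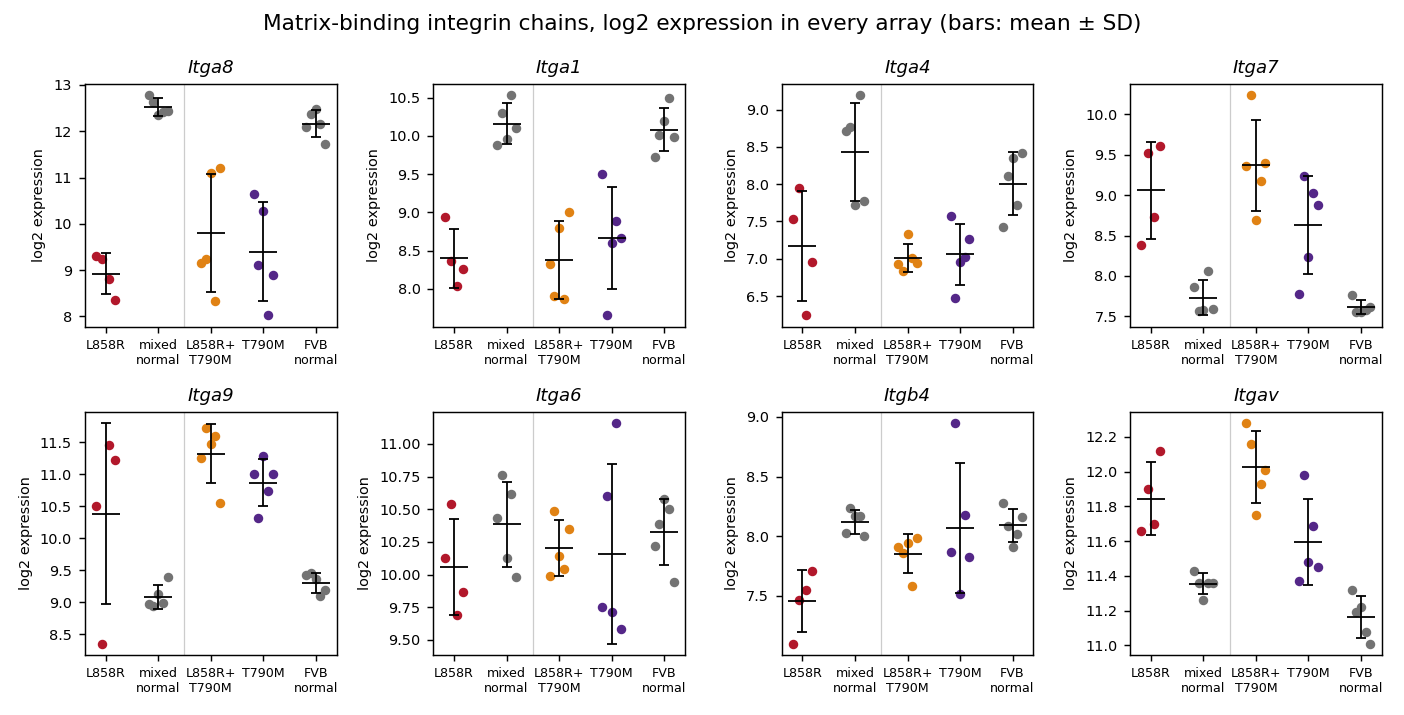
Log2 expression of 8 matrix-binding integrin chains in each of the 24 arrays, with the tumours of each strain label left of their normals and bars for the mean ± SD. Itga8 and Itga1 tumours lie below all their normals, Itga7 and Itgav tumours above, and Itga9 has 1 L858R array below the normals.

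The leukocyte integrins followed no common pattern. Itgb2, the beta chain of all CD18 integrins, read 12.50, 12.78, 12.18 and 12.33 in L858R tumours, against 11.09, 11.14, 11.24, 11.28 and 11.24 in mixed-strain normals. It read 11.43, 9.54, 11.31, 12.08 and 11.90 in L858R+T790M tumours and 11.19, 10.32, 11.58, 10.75 and 11.80 in T790M tumours, against 10.82, 11.61, 11.61, 11.49 and 11.74 in FVB normals. The L858R tumours lay above their normals (1.25 ± 0.36, adjusted p = 0.00818), and the other groups overlapped with theirs (-0.20 ± 0.34 and -0.33 ± 0.34, adjusted p = 0.696 and 0.483). Macrophage markers had 4 of 6 genes higher and 1 lower in L858R tumours, 1 higher in L858R+T790M and 1 lower in T790M tumours. Their mean was 10.95 to 11.97 in L858R, 9.99 to 11.95 in L858R+T790M and 10.10 to 10.76 in T790M tumours, against 9.90 to 10.37 in mixed-strain and 10.13 to 10.42 in FVB normals. The part of macrophages in the rise of Itgb2 was not tested.

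Itgal, the alpha chain of LFA-1 on lymphocytes, read 10.60, 10.59, 10.26 and 10.12 in L858R tumours, against 10.17, 10.28, 10.43, 10.40 and 10.41 in mixed-strain normals. In L858R+T790M tumours it read 9.87, 8.04, 9.97, 10.29 and 10.00 and in T790M tumours 10.51, 8.66, 9.61, 9.25 and 10.20, against 10.16, 10.89, 10.85, 10.59 and 11.27 in FVB normals. Tumours and normals overlapped in each comparison. It was lower in L858R+T790M (-1.12 ± 0.34, adjusted p = 0.0136) and T790M tumours (-1.11 ± 0.34, adjusted p = 0.0134) and differed by 0.05 ± 0.37 in L858R tumours (adjusted p = 0.921). Without L858R+T790M replicate 2, which read 8.04, the L858R+T790M difference was -0.72, still called. Itgb7, the beta chain of gut-homing lymphocytes and of the alpha E receptor, was lower in each group (-0.95 ± 0.20, -0.95 ± 0.19 and -0.69 ± 0.19, adjusted p from 0.000391 to 0.00546). The mean over 7 T and NK cell markers was 6.89 to 7.17 in L858R, 7.14 to 7.93 in L858R+T790M and 6.93 to 8.58 in T790M tumours, against 8.05 to 8.73 in mixed-strain and 8.43 to 9.50 in FVB normals. The median difference of these markers was -1.89 in L858R tumours, where Itgal was not called, -1.45 in L858R+T790M and -1.12 in T790M tumours. Of 4 markers of all leukocytes, 1 was higher and 0 lower in L858R tumours (median -0.34), and 0 higher and 2 lower in both L858R+T790M (median -0.88) and T790M tumours (median -0.92). Their mean was 10.80 to 11.40, 9.43 to 11.53 and 9.78 to 11.57 in the tumours in that order, against 11.14 to 11.54 in mixed-strain and 11.07 to 12.21 in FVB normals. The part of these cells in the falls of Itgal and Itgb7 was not tested.

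Itgae, the alpha E chain that binds E-cadherin on epithelium, read 8.10, 7.49, 7.82 and 7.19 in L858R tumours, against 7.70, 7.85, 8.07, 8.27 and 7.94 in mixed-strain normals. It read 7.07, 7.92, 7.87, 7.51 and 6.70 in L858R+T790M tumours and 8.77, 7.90, 8.77, 8.84 and 8.55 in T790M tumours, against 8.42, 8.30, 8.20, 8.35 and 8.38 in FVB normals. L858R+T790M tumours lay below their normals (-0.92 ± 0.21, adjusted p = 0.00171), and the other groups overlapped (-0.32 ± 0.23 and 0.24 ± 0.21, adjusted p = 0.28 and 0.408). Itgam, the CD11b chain of myeloid cells, was not called, with 8.78 and 8.70 in L858R+T790M replicates 1 and 5, while replicates 2, 3 and 4 read 6.25 to 6.51. Neutrophil markers averaged 12.10 and 10.41 in replicates 1 and 5, and 8.20 to 9.42 in replicates 2, 3 and 4; their part in the spread of Itgam was not tested. In L858R tumours Itgam differed by -0.93 ± 0.47 (adjusted p = 0.12), with all arrays below their normals. The difference was -0.01 ± 0.44 in L858R+T790M tumours (adjusted p = 0.992). A fit to only the groups compared called Itgam lower in L858R (adjusted p = 0.00374) and T790M tumours (adjusted p = 0.038). In T790M tumours, where 3 of 3 neutrophil markers were lower (0 of 3 in the other tumour groups), Itgam differed by -1.02 ± 0.44 (adjusted p = 0.0707). It was called there without FVB normal replicate 4 (-1.20, adjusted p = 0.0497), or L858R+T790M replicate 1 or 5 (-1.02, adjusted p = 0.0436 and 0.0452). Itgb2l, a relative of Itgb2, was higher in L858R tumours by 0.29 ± 0.11 (adjusted p = 0.0432), a call lost without any 1 of 9 arrays.

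**Figure D5:**
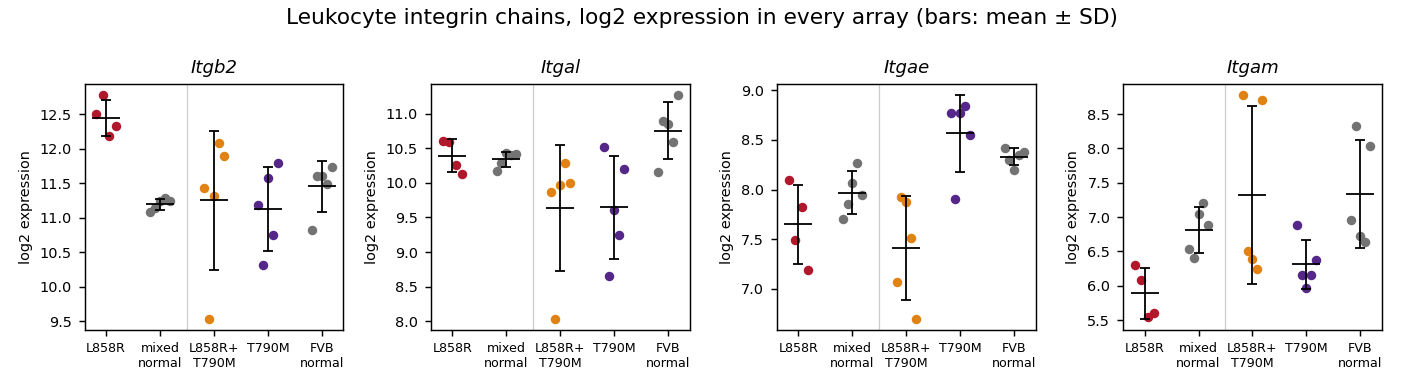
Log2 expression of 4 leukocyte integrin chains in each of the 24 arrays, with the tumours of each strain label left of their normals and bars for the mean ± SD. Itgb2 in L858R tumours lies at 12.18 to 12.78, above all normals, and Itgae in T790M tumours lies above most L858R+T790M tumours.

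Tumour genotypes were also set against each other. Between L858R+T790M and T790M tumours, which asks what L858R adds beside T790M, 0 members were higher (against 0.764% of all genes) and 1 lower (against 0.824%, and 1.59% in either direction) in limma; at an unadjusted p under 0.05 the counts were 6 and 1. The 1 called was Itgae, lower in L858R+T790M tumours by 1.15 ± 0.21 (2.22-fold, adjusted p = 0.00922), with values that overlapped at 7.92 and 7.90. No member's arrays were free of overlap between these genotypes (0 of 34, against 2.26% of all genes). In a fit to these groups alone it was not called (adjusted p = 0.255). Itgav was 0.43 ± 0.11 higher with both changes (adjusted p = 0.0522), and called without L858R+T790M replicate 3 (0.50, adjusted p = 0.0284), T790M replicate 2 (0.53, adjusted p = 0.00895) or L858R replicate 1 or 4. Without L858R+T790M replicate 2, Itga3 (0.47, adjusted p = 0.0394) and Itgb6 (0.98, adjusted p = 0.0337) were called higher. For Lamb3 the difference was -0.03 (95% interval -0.56 to 0.49) and for Itga8 0.41 (-0.57 to 1.40), so differences of up to these sizes were not excluded.

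L858R tumours were compared with the other genotypes after each had its own normals subtracted. Against L858R+T790M tumours 0 members were called either way (against 0.0385% of all genes higher, 0.033% lower and 0.0715% in all, 0.0495% at 2-fold or more), with 2 higher and 7 lower at an unadjusted p under 0.05 in limma. Against T790M tumours the count was also 0 (against 0.418%), with 2 and 5 at an unadjusted p under 0.05. Itgb2 gave 1.45 (95% interval 0.42 to 2.49, adjusted p = 0.317) and 1.58 (0.54 to 2.61, adjusted p = 0.15). Lama4 gave -0.78 (-1.33 to -0.23, adjusted p = 0.304) and -1.02 (-1.57 to -0.48, adjusted p = 0.0793), and against T790M tumours it was called without L858R+T790M replicate 2 (-1.02, adjusted p = 0.0406) or T790M replicate 2 (-1.13, adjusted p = 0.0402). Itgb2 was likewise called against T790M tumours without L858R+T790M replicate 2 (adjusted p = 0.0249). The larger fall of Lama4 in L858R tumours is therefore a value that did not pass the test with all arrays. Lamb3, whose difference from normals was smaller in L858R tumours, gave -0.86 and -0.89 (adjusted p = 0.461 and 0.262). Its means were close in the tumours, 12.09 in L858R, 12.18 in L858R+T790M and 12.22 in T790M. They were 9.95 in mixed-strain and 9.18 in FVB normals.

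The normal lungs of the strain labels were compared because each tumour group leans on one of them. In limma 0 members were called (against 0.676% of all genes higher and 1.04% in all, 0.077% at 2-fold or more), with 8 higher and 0 lower in mixed-strain normals at an unadjusted p under 0.05. Lama2, Lama3, Lamb2, Lamb3, Lamc1 and Itgb5 had no overlap between the sets (17.6% of members, against 10.4% of all genes), all higher in mixed-strain normals. For Lama3 the difference was 0.86 ± 0.25 (adjusted p = 0.0906), for Lamb3 0.77 ± 0.25 (adjusted p = 0.143) and for Lama2 0.56 ± 0.19 (adjusted p = 0.156). In a fit to the normal lungs alone, whose spread was smaller, 6 members were higher, all of them laminins, and 1, Itgae, lower. The share of all genes called in that fit was not counted. Nor was the share at an unadjusted p under 0.05, here or between the tumour genotypes. Lamb3 in the tumours of each label lay above both sets of normals, where mixed-strain normals read up to 10.15 and FVB normals up to 9.55.

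Other genes of the pathway were taken from 4 lists. Of 13 basement membrane partners, 1 was higher and 5 lower in L858R, 2 and 3 in L858R+T790M, and 2 and 7 in T790M tumours. The L858R fall count was 8 without L858R replicate 1, and that of T790M tumours was 4 without FVB normal replicate 2. The 1 higher in L858R tumours was lost without L858R replicate 3 or 4, and 1 rather than 2 were higher in T790M tumours without any 1 FVB normal or without T790M replicate 2, 3, 4 or 5. Col18a1, the source of endostatin, rose (1.54 ± 0.49, 2.03 ± 0.46 and 1.88 ± 0.46) and Ntn4, a netrin that binds laminin gamma chains, fell (-2.15 ± 0.51, -2.39 ± 0.48 and -2.83 ± 0.48). Of 8 other laminin receptors and hemidesmosome genes, 3 were higher and 4, 3 and 4 lower in the same order. Sdc1, a syndecan that binds laminin through its sugar chains, rose (1.57 ± 0.11, 1.64 ± 0.10 and 1.46 ± 0.10), and Dst, which holds a hemidesmosome plaque protein, fell (-1.88 ± 0.36, -1.46 ± 0.34 and -1.78 ± 0.34).

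Integrin ligands had 1 of 17 higher and 9 lower in L858R, 2 and 7 in L858R+T790M, and 1 and 5 in T790M tumours. In T790M tumours 8 to 10 were lower under 5 other settings: 9 after quantile normalization, 8 without the dimmest genes, 8 in a fit to the groups compared, 9 with the replicate block and 10 against all normals. The L858R+T790M fall count was 4 without L858R+T790M replicate 2 or 4. The T790M fall count was 8 without T790M replicate 5 and 9 without L858R replicate 2 or L858R+T790M replicate 5. The count higher was 2 rather than 1 in L858R tumours without L858R+T790M replicate 2 or T790M replicate 2, and in T790M tumours without either of these or L858R+T790M replicate 5. Vitronectin (Vtn; -2.64 ± 0.22, -1.98 ± 0.21 and -1.93 ± 0.21), Icam2, a vessel ligand of LFA-1 (-3.31 ± 0.52, -2.93 ± 0.49 and -2.96 ± 0.49), the TGF-beta binding protein Ltbp1 (-2.26 ± 0.37, -1.05 ± 0.35 and -1.42 ± 0.35) and von Willebrand factor (Vwf; -1.79 ± 0.37, -1.74 ± 0.34 and -1.93 ± 0.34) fell in each. Of 20 intracellular adhesion proteins 4 were higher and 11 lower in L858R, 4 and 8 in L858R+T790M, and 2 and 11 in T790M tumours. Among them the integrin activator Fermt2 (-1.43 ± 0.21, -1.0 ± 0.20 and -1.16 ± 0.20), the actin linker Parvb (-1.97 ± 0.31, -1.61 ± 0.29 and -1.63 ± 0.29) and the adaptor Lims2 (-2.51 ± 0.28, -2.03 ± 0.26 and -2.10 ± 0.26) fell. The endothelial and mesenchymal markers given above were lower in the same arrays, and their part in these falls was not tested.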

How the data were processed

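Total RNA from 24 mouse lung samples was hybridised to 1 Affymetrix mouse expression array each, per the labels. The authors deposited 1 log2 value per probe set and array, summarised with RMA per the submitters' processing notes, which name no version or settings. Arrays share a common scale (medians 7.21 to 7.34), and no further normalization or filter was applied. The number of arrays, 4 or 5 per group, limits the precision. Background correction and scanner signals could not be varied.

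Of 45101 probe sets, 64 controls were left out. GEO's platform annotation gave 34945 probe sets 1 gene and 932 several. Symbols were updated by Entrez identifier, and the brightest probe set stood for each of 18193 genes. Of the members 21 had several probe sets. The linear model of limma 3.58.1 (R 4.3.3) held a mean for each of 5 groups, leaving 19 residual degrees of freedom, with the eBayes trend option. On simulated data for L858R+T790M tumours against FVB normals (18193 genes), 92 of 100 log2 changes of 1, 100 of 100 of 2 and 14 of 17993 unchanged genes were called. The simulation gave each gene the same spread in every group and changed few genes. In the data, mean absolute differences between arrays were 0.196 to 0.413 within L858R+T790M tumours and 0.126 to 0.187 within FVB normals. These rates therefore need not hold for the data.

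The members and lists were chosen with earlier results of these data known. Every member may be named. Values in every array are given for members called with a log2 difference of 1 or more against normals, members called between tumour genotypes, and Lama3, Lamb3, Itga6 and Itgb4. Pathway genes were named where called the same way with a difference of 1 or more in all 3 tumour groups. Promoter windows came from RefSeq, matched by gene. Alternatives were 2 rescalings, 2 probe set rules, a filter on dim genes, array weights, no trend, a fit to the compared groups, a replicate block, a stricter threshold, pooled normals, a direct difference, a stricter reading of the membership rule and leaving out each array.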

Additional observations from a re-analysis of the deposited data

Results flagged for a closer look

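Of 170 sets of values (34 members in 5 groups), 7 held an array that stood apart from the others of its group, where chance gives about 1 in 20. T790M replicate 2 was high in Itga2 (8.44, others 6.88 to 7.24) and low in Lama4 (8.57, others 9.06 to 9.18). Lamb2 was low in T790M replicate 4 (7.92, others 8.72 to 8.84). Itga2b was high in T790M replicate 1 (8.71, others 8.12 to 8.26) and in mixed-strain normal replicate 1 (9.73, others 8.48 to 8.81). Itgal was low in L858R+T790M replicate 2 (8.04, others 9.87 to 10.29), and Itgb2 in FVB normal replicate 1 (10.82, others 11.49 to 11.74).

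Itgae differed between tumour genotypes, with -1.15 ± 0.21 in L858R+T790M against T790M tumours (adjusted p = 0.00922).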

How the results depend on the processing

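Of 61 member calls, 46 were kept in every alternative that tested them and none reversed in any. The filter on dim genes and the stricter membership rule left out some members, whose calls were not tested there. The 15 others lost the call in at least 1, the cause not tested beyond the fewer arrays or stricter threshold of some settings. Counts of members that moved by over 1.5 times were as follows. With array weights, 17 were lower in T790M tumours against FVB normals (11 as reported), 2 higher in L858R+T790M against T790M tumours, 2 lower in L858R against T790M tumours, and 8 higher and 1 lower in mixed-strain against FVB normals. In the fit to the groups compared, the counts were 0 lower in L858R+T790M against T790M tumours, 1 higher and 1 lower in L858R against T790M tumours, and 6 and 1 between the normals. At an adjusted p under 0.01, 7 were lower in L858R+T790M tumours against FVB normals (12 as reported). With the median over probe sets, 1 (Lamb1) was lower in L858R against T790M tumours and 1 higher between the normals. Without the dimmest genes, 1 (Itgav) was higher in L858R+T790M against T790M tumours. The direct difference gave 2 higher and 1 lower in L858R against T790M tumours. The cause of these was not tested, and the shares of all genes called under these settings were not counted.

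Without 1 array, members higher and lower were 6 to 8 and 14 to 17 in L858R, 7 to 8 and 9 to 14 in L858R+T790M, and 6 to 6 and 11 to 13 in T790M tumours against normals. Between L858R+T790M and T790M tumours they were 0 to 2 and 1 to 1, in L858R against L858R+T790M tumours 0 to 0 and 0 to 0, in L858R against T790M tumours 0 to 1 and 0 to 1, and between the normals 0 to 1 and 0 to 0. Replicate numbers are shared across groups, but only 8 of 24 same-numbered pairs correlated above 0.1 (-0.284 to 0.440), and an array correlated best with its own number in 12 of 38 cases. Of the 8, 4 were among the 5 pairs of L858R+T790M with T790M tumours, 3 among the 5 of T790M tumours with FVB normals and 1 among those of L858R+T790M tumours with FVB normals. With the replicate block the counts against normals were 7 and 16, 7 and 13, and 6 and 11. They were 0 and 1 between L858R+T790M and T790M tumours, and 0 and 0 in the other comparisons. Of the integrin ligands, 9 were then lower in T790M tumours (5 as reported). Centring each array moved the median of all genes in L858R tumours to 0.111, against 0.047 as reported.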
